A study of Mus musculus with 16 samples.

Results

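The genes of the constitutive proteasome were examined in bulk RNA-seq of mouse pulmonary endothelial cells (ECs). They were taken by symbol, as the protein-coding genes named Psma, Psmb, Psmc or Psmd with a number, without the immunoproteasome genes Psmb8, Psmb9 and Psmb10. The rule gave 36 genes of the 54532 in the tables. The study asked how lung ECs respond to acute injury by lipopolysaccharide (LPS), a component of the bacterial outer membrane, and what the loss of endothelial FGFR1 changes in that setting. In the first experiment, male WT C57/BL6J mice of 8 weeks received saline (n = 4) or 10 mg/kg LPS (n = 6) into the trachea. In the second, 3 Fgfr1 loxP/loxP and 3 Fgfr1 iΔEC/iΔEC libraries came from adult mice that all received tamoxifen and 2 mg/kg LPS, so that this experiment held no saline group. The iΔEC/iΔEC mice carry the floxed Fgfr1 alleles and VE-cadherin-CreERT2, a Cre recombinase that is driven by an endothelial promoter and switched on by tamoxifen. Lungs were taken after 24 h, and ECs were isolated with magnetic beads as CD31+ CD45- cells. Each library is labelled as a separate sample, and the labels do not state how many mice gave each one, so that p-values measure the spread between these samples, part of which may be technical.

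The proteasome is the protease that degrades most proteins tagged with ubiquitin in the cytosol and nucleus. Its 20S core is a barrel of α rings, which form the gate, and β rings, which hold the catalytic sites. The 19S regulatory particle caps the barrel, and its base of ATPases unfolds substrates while its lid removes the ubiquitin chain. Cells exposed to interferon can build an immunoproteasome, in which PSMB8, PSMB9 and PSMB10 take the places of the catalytic subunits PSMB5, PSMB6 and PSMB7. In endothelium, proteasomal degradation of IκB proteins is a step by which inflammatory signals release NF-κB. The transcription factor NRF1, encoded by Nfe2l1, is known to raise transcription of proteasome genes through antioxidant response elements when proteasome activity falls.

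Promoter sequence is shown for Psmb5 and Psmd14, which had the highest log2 fold changes under LPS among all members, and for Psmb6, a further catalytic subunit gene. RefSeq windows from 250 bases before to 50 bases after the start of transcription (GRCm38.p6) were matched for 29 of the 36 genes. In the lines below, which read 5′ to 3′ on the strand of the gene, capitals mark the letters TGACNNNGC, the core of the antioxidant response element. The windows lie at chr14:54617946-54618245 (minus strand, Psmb5), chr11:70525107-70525406 (plus strand, Psmb6) and chr2:61711444-61711743 (plus strand, Psmd14).
Psmb5: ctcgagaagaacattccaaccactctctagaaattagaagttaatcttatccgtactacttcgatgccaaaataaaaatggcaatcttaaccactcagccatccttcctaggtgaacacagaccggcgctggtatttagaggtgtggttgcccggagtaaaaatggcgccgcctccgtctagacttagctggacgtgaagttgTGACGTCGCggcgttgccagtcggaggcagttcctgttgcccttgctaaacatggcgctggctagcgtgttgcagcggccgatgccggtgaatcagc
Psmb6: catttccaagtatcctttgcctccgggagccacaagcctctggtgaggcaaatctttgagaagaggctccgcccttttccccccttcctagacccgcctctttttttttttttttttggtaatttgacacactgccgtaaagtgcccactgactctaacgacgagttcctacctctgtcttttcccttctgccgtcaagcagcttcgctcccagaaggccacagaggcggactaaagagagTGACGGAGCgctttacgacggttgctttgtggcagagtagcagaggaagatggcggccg
Psmd14: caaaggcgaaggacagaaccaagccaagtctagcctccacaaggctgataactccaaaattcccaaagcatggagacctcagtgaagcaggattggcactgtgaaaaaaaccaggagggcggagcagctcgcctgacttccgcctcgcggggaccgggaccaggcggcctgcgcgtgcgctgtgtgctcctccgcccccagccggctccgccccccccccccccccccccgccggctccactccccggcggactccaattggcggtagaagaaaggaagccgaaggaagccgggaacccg
The match began 47 bases before the start in Psmb5 (TGACGTCGC) and 9 bases before it in Psmb6 (TGACGGAGC), and Psmd14 had none. Searched on both strands, TGACNNNGC was in 5 of the 31 member windows (16.13%), those of Psmb5, Psmb6, Psmc6, Psmd12 and Psmd9, and in 12.39% of all 32851 windows. The letters TGACTCAGC, a special case of the same core, were in 0 member windows and in 0.4536% of all windows. The letters CCAAT were in 12 member windows (38.71%) and in 37.41% of all windows. A match of letters is a description of the window and not a measured binding site.

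The reads on genes numbered 13478726 to 18807007 in the saline libraries and 17840221 to 19043015 in the LPS libraries. They numbered 15969575 to 17002788 in the loxP/loxP and 16642177 to 16943522 in the iΔEC/iΔEC libraries. Values are FPKM, in which reads on a gene are divided by gene length and by a library size. The library size in the deposited values is not the total of reads on genes: in the first experiment it already matches the median-of-ratios scale, on which the typical gene has the same level in each library, so that FPKM totals differ between libraries. Behind the 34 members above 1 FPKM stood 81 to 2801 reads per gene in a saline library and 357 to 6583 in an LPS library.

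The EC label was checked with marker genes before any comparison. The 10 endothelial markers were all above 1 FPKM in every library, with Cldn5 as the most abundant. Cdh5, which encodes VE-cadherin, stood at 710 ± 56.0 FPKM (SD, n = 4) in saline and at 394 ± 97.6 FPKM (SD, n = 6) in LPS. Markers of cells that the sort should remove were also read. The summed FPKM of 6 leukocyte markers was 320, 156, 106 and 136 in saline 1 to 4 and between 1009 and 2439 in the LPS libraries. Ptprc, the gene of CD45, averaged 6.97 ± 3.13 FPKM in saline and 34.6 ± 11.4 FPKM in LPS. The sum of 8 neutrophil markers was 1380, 69.5, 307 and 74.1 FPKM in saline 1 to 4 and 1293 to 6638 FPKM in LPS, with S100a9 on top and Ly6g at 0 in saline 4. The sum of 8 macrophage and monocyte markers was 373 to 1111 FPKM in saline and 1882 to 4085 FPKM in LPS, with Lyz2 on top and Marco at 0 in saline 1. The sum of 8 epithelial markers moved the other way, with 2643, 1234, 1961 and 1000 FPKM in saline 1 to 4. It was 198 to 738 FPKM in LPS, without overlap and with Sftpc on top. Only Sftpc of the 8 had groups that stood apart. The mean log2(FPKM + 1) of the list overlapped, at 4.28 to 6.07 in saline and 3.58 to 4.97 in LPS. In LPS against saline, limma called 6 of 6 leukocyte, 7 of 8 neutrophil and 7 of 8 macrophage and monocyte markers higher, with 6 of 10 endothelial and 2 of 8 epithelial markers lower and 0 higher, at an adjusted p of 0.05 or less. Over all genes tested, 29.5% were called higher and 23.7% lower, and the epithelial count was near the latter share. Saline 1 and saline 3 stood apart from the other saline libraries by their neutrophil sums, and they also had the highest epithelial sums, and the main counts are therefore also given without them.

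After LPS, nearly all genes of the constitutive proteasome rose. Of the 36 genes, 35 passed the filter of 0.5 FPKM on the mean. Of these, 33 were called higher and 0 lower, where 29.5% of the 14893 genes tested were called higher and 23.7% lower (53.2% in either direction). In bulk RNA, fewer cells of a type and less RNA per cell cannot be told apart, and the part of leukocytes and epithelial cells in this result was not tested. The median log2 fold change of the members was 1.11, with a range from 0.16 to 1.87, and that of all genes tested was 0.01. All 35 tested members had a log2 fold change above 0, as did 50.7% of all genes tested. At a log2 fold change of at least 1, 22 members were called higher, against 11.9% of all genes tested, and 0 were called lower at -1 or less, against 6.79%. In 32 members every LPS library was above every saline library, which was so for 22.7% of the genes tested. The log2 fold changes had an SD of 0.36 over the members and of 0.94 over all genes. Among genes that averaged 5 FPKM or more, which are more often called, 41.9% were called higher, and 33 of 33 members were. Without saline 1 and saline 3, 32 members were called higher, 0 were lower and the median was 1.19. Over all genes the split of calls depended on the scaling, with 4399 higher and 3529 lower as reported here, 3463 and 4670 with equal totals of reads, 3570 and 4295 after quantile normalization and 7286 and 783 on the endothelial marker scale. On these scales 32, 31 and 34 members were called higher, and the members' median log2 fold change was 0.91, 0.69 and 1.82, so that its size depended on the scaling.

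**Figure D1:**
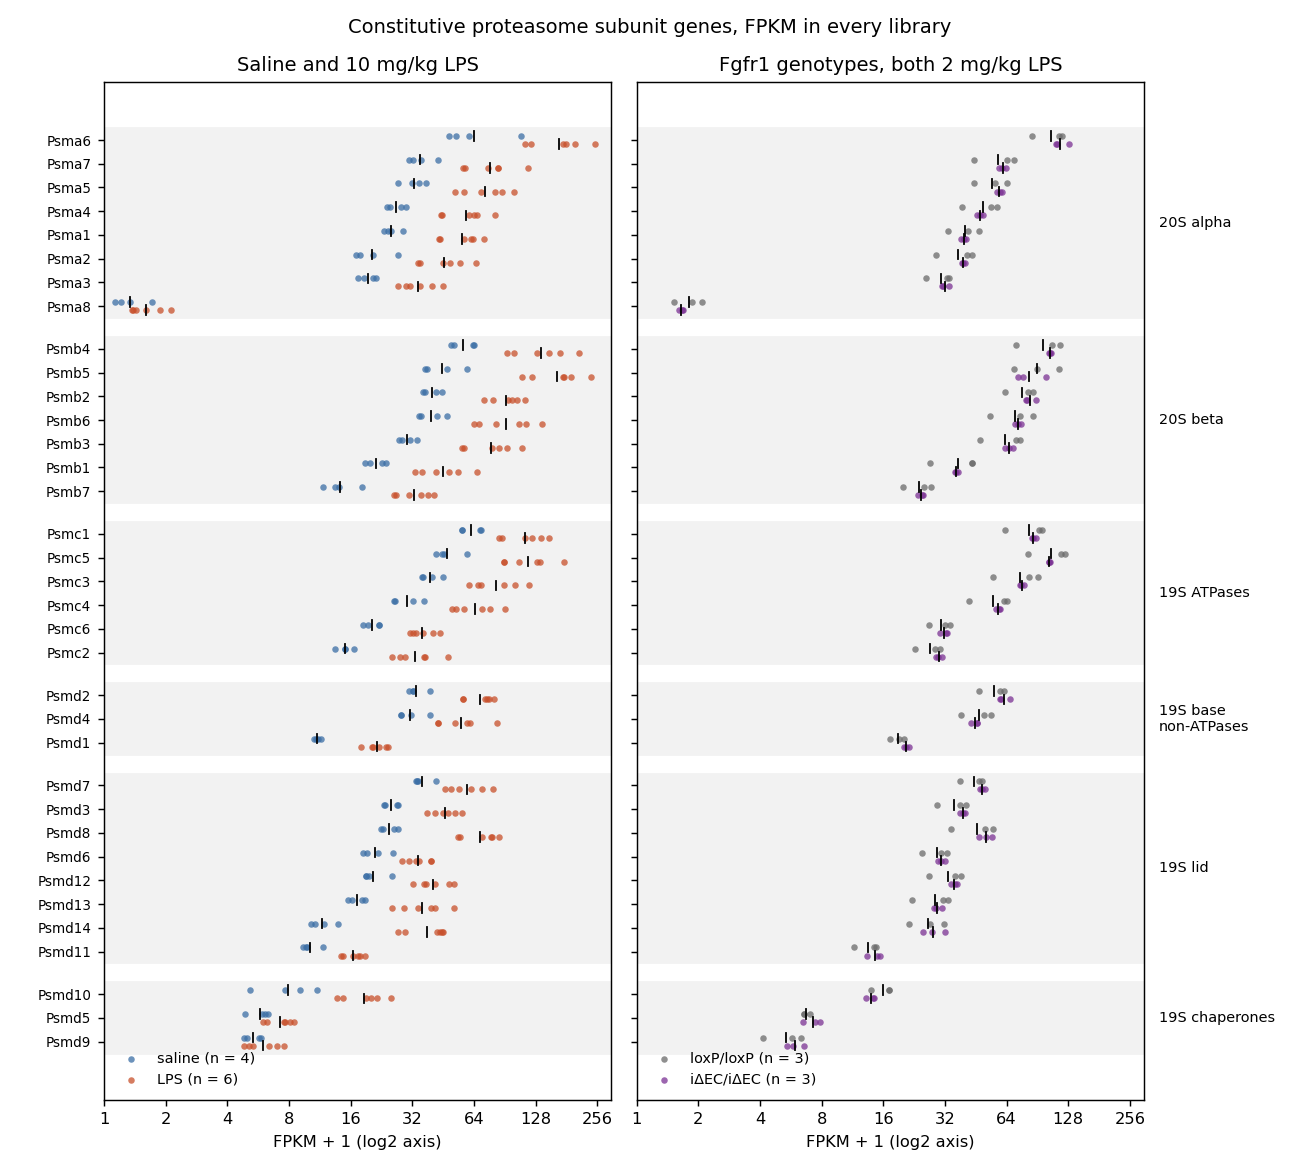
FPKM + 1 on a log2 axis for the 35 tested members (rows, by subunit group) in every library (points), with the mean of the log2 values as a black tick. Left, saline (n = 4) and 10 mg/kg LPS (n = 6). Right, loxP/loxP and iΔEC/iΔEC (n = 3 each), both with 2 mg/kg LPS. On the left the groups do not overlap in 32 members, and on the right they overlap in all 35.

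Among the 7 β subunit genes tested, all were called higher, and the catalytic ones are given first. Psmb5 (ENSMUSG00000022193, chr14:54614119-54618022), whose protein cleaves after hydrophobic residues, stood at 46.3, 36.6, 58.2 and 36.1 FPKM in saline 1 to 4 and at 109 to 237 FPKM in LPS, with a median of 174. The lowest LPS library was above the highest saline library by a wide gap. The means were 44.3 ± 10.4 FPKM (SD, n = 4) and 168 ± 46.7 FPKM (SD, n = 6), a 3.78-fold ratio, and the log2 fold change of 1.87 (SE 0.23, limma adjusted p = 7.12e-05) was the highest of all members. The microRNA gene Mir686 lies within Psmb5, as annotated in GENCODE M21.

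Psmb6 (ENSMUSG00000018286, chr11:70525367-70527858), the subunit that cleaves after acidic residues, stood at 46.1, 33.7, 41.2 and 34.3 FPKM in saline and at 63.1 to 137 FPKM in LPS (median 93.3). Its log2 fold change was 1.22 (SE 0.22, limma adjusted p = 0.00101), and the groups did not overlap. Psmb7 (ENSMUSG00000026750, chr2:38588036-38644087), the subunit that cleaves after basic residues, was the least abundant of the core genes above 1 FPKM, with 17.1, 12.5, 13.1 and 10.7 FPKM in saline and 25.0 to 40.0 FPKM in LPS (median 32). Its log2 fold change was 1.20 (SE 0.17, limma adjusted p = 0.000177), again with no overlap. Psmb7 is overlapped by the protein-coding gene Nek6, and the strand setting of the read counting is not given in the sources used here.

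The other 4 genes called encode β subunits without a catalytic site. The lowest change among the β genes was that of Psmb1, which stood at 21.8, 19, 22.7 and 17.8 FPKM in saline and at 32.1 to 65.1 FPKM in LPS (median 44.1), with a log2 fold change of 1.09 (SE 0.19, limma adjusted p = 0.000713). Psmb2, Psmb4 and Psmb3 lay between, at 1.21, 1.27 and 1.36. Psmb11, the β5t subunit of cortical thymic epithelium, was read 2 times in LPS 6 and 0 times in the other libraries of both experiments, and it was not tested. A count of 0 allows up to 3 reads in a library.

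Genes of the α ring rose as well. Of 8 α genes, 7 were called higher, with a median log2 fold change of 1.14 against 1.22 for the β genes. Psma6 was the most abundant core gene in every group, with 108, 51.2, 59.6 and 47.5 FPKM in saline and 113 to 250 FPKM in LPS (median 177). Its change was the highest of the α genes, at 1.39 (SE 0.28, limma adjusted p = 0.00162), and saline 1 came close to the lowest LPS library. Psma1, Psma2, Psma4, Psma5 and Psma7 had log2 fold changes from 1.13 (Psma7) to 1.18 (Psma2), and Psma3 had 0.81. Psma8, an α subunit used in the testis, was the exception. It had 0.714, 0.347, 0.132 and 0.210 FPKM in saline, from 4 to 16 reads, and 0.372 to 1.12 FPKM in LPS, and it was not called (log2 fold change 0.27, SE 0.17, limma adjusted p = 0.203).

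In the base of the regulatory particle, all 6 ATPase genes were called higher, with a median log2 fold change of 1.09. Psmc5 changed most, from 41.0, 44.6, 58.0 and 43.7 FPKM in saline to 88.7 to 176 FPKM in LPS (median 117), a log2 fold change of 1.31 (SE 0.20, limma adjusted p = 0.000331). Psmc6 changed least, from 21.1, 17.4, 21.1 and 18.4 FPKM to 30.3 to 42.8 FPKM (median 33.8), a log2 fold change of 0.81 (SE 0.12, limma adjusted p = 0.000309). In both, each LPS library was above each saline library. The log2 fold changes of Psmc1, Psmc2, Psmc3 and Psmc4 were 0.86, 1.15, 1.07 and 1.11.

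The base also holds the scaffolds PSMD1 and PSMD2 and the ubiquitin receptor PSMD4, and all 3 genes were called higher. Psmd2 stood at 37.9, 31.4, 29.8 and 31.1 FPKM in saline and at 55.6 to 79.3 FPKM in LPS (median 72.6), with a log2 fold change of 1.04 (SE 0.14, limma adjusted p = 0.000124). Psmd4 stood at 37.9, 27.0, 30.4 and 27.1 FPKM in saline and at 41.6 to 81.9 FPKM in LPS (median 54.7), with a log2 fold change of 0.82 (SE 0.19, limma adjusted p = 0.00428). Saline 1 was the highest saline library in both. Psmd1 stood at 9.97 ± 0.37 FPKM (SD, n = 4) in saline and between 17.1 and 23.3 FPKM in the 6 LPS libraries, and its log2 fold change was 0.97.

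All 8 lid genes were called higher, with a median log2 fold change of 0.93. Psmd14 encodes the metalloprotease that cuts the ubiquitin chain from the substrate at the mouth of the particle. It stood at 12.9, 9.73, 10.8 and 9.26 FPKM in saline and at 26.2 to 44.2 FPKM in LPS (median 42.2). LPS 3 and LPS 6 were lower than the rest, at 28.4 and 26.2 FPKM, and the other 4 LPS libraries lay between 41.5 and 44.2 FPKM. The means differed 3.54-fold, and the log2 fold change of 1.71 (SE 0.18, limma adjusted p = 2.33e-05) was the highest of the regulatory particle. Psmd8 followed with 1.48 (SE 0.15). The lowest change in the lid was that of Psmd6, at 24.8, 17.4, 20.8 and 18.3 FPKM in saline and 27.7 to 38.6 FPKM in LPS (median 33.0), with a log2 fold change of 0.69 (SE 0.13, limma adjusted p = 0.00146). Psmd11, Psmd7, Psmd3, Psmd12 and Psmd13 had 0.70, 0.73, 0.87, 0.98 and 1.06. The call of Psmd7 was lost after quantile normalization, where its adjusted p was 0.0638.

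The 3 genes of the base assembly chaperones, PSMD5, PSMD9 and PSMD10, carry Psmd symbols without being part of the finished particle, and 2 of them were called higher. Psmd10, which encodes gankyrin, stood at 4.17, 8.06, 10.0 and 6.68 FPKM in saline and at 12.8 to 24.2 FPKM in LPS (median 18.6), with a log2 fold change of 1.23 (SE 0.23, limma adjusted p = 0.000978) and no overlap. It had the fewest reads of the called members, 81 to 263 in a saline library. Psmd5 stood at 3.9, 4.88, 5.32 and 5.08 FPKM in saline and at 4.96 to 7.46 FPKM in LPS, and the groups overlapped. It was called at the edge of the threshold (log2 fold change 0.33, SE 0.13, limma adjusted p = 0.0491), and it had the call in 6 of 21 settings, the reported one included, with adjusted p from 0.00115 to 0.366. Psmd9 stood at 4.69, 3.85, 4.85 and 3.98 FPKM in saline and at 3.85 to 6.59 FPKM in LPS (median 4.86), with overlapping groups and no call (log2 fold change 0.16, SE 0.15, limma adjusted p = 0.365). The 95% confidence interval of its log2 fold change ran from -0.16 to 0.48.

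The order of levels among the members was alike in saline and LPS. Per gene length, the 14 core genes above 1 FPKM ranged in saline from 13.3 FPKM (Psmb7) to 66.5 FPKM (Psma6), a 4.98-fold range, and in LPS from 32 to 172 FPKM with the same genes at the ends, a 5.39-fold range. The 17 genes of the regulatory particle other than the chaperones ranged in saline from 9.16 FPKM (Psmd11) to 61.6 FPKM (Psmc1), and in LPS from 15.6 FPKM (Psmd11) to 120 FPKM (Psmc5). Over the 35 tested members, the mean FPKM in saline and in LPS had a Spearman correlation of 0.96. This describes the members and is not a test, since they share libraries.

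The members varied together between libraries of the same group, and the FPKM total of all genes varied with them. LPS 2 had the highest FPKM of the 6 LPS libraries in 29 of the 35 members, while LPS 3 had the lowest in 22 and LPS 6 in 11. In saline, the highest value was that of saline 1 in 18 members and of saline 3 in 17. The FPKM total of all genes was likewise highest in LPS 2 (425873) and lowest in LPS 6 (301649) and LPS 3 (303653) among the LPS libraries, and it was higher in saline 1 and saline 3 (337889 and 312146) than in saline 2 and saline 4 (229473 and 232531). The mean log2(FPKM + 1) of the 35 members was 4.57, 4.33, 4.54 and 4.31 in saline 1 to 4, and 5.44, 5.87, 5.13, 5.69, 5.58 and 5.16 in LPS 1 to 6. All 36 genes together made up 0.308, 0.360, 0.319 and 0.352% of the FPKM total in saline 1 to 4 and 0.523 to 0.677% in LPS, so that the groups did not overlap on this scale either. On this scale saline 1 and saline 3 were the lowest saline libraries, below saline 2 and saline 4. LPS 2, highest in the members on both scales, was also highest in the neutrophil sum (6638 FPKM). Saline 1 and saline 3 had the highest neutrophil sums of the saline libraries, with the highest members' mean in FPKM and the lowest share of the FPKM total. LPS 6 had a neutrophil sum below that of saline 1 (1293 and 1380 FPKM), and its mean over the members was higher, at 5.16 against 4.57. Its leukocyte sum was above that of saline 1 (1009 and 320 FPKM). The part of leukocytes in the rise of the proteasome genes was not tested.

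**Figure D2:**
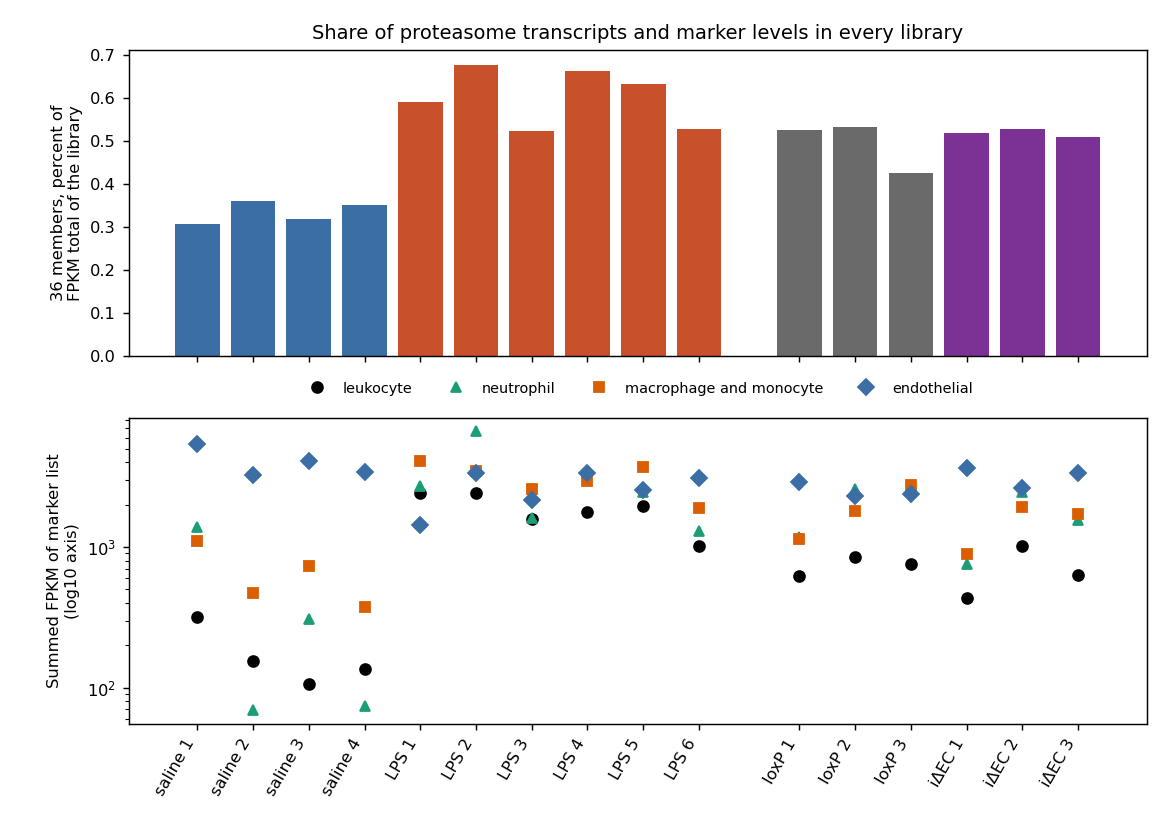
Top, the 36 members as a percentage of the FPKM total in each of the 16 libraries (bars from 0). Bottom, summed FPKM of 4 marker lists in the same libraries on a log10 axis. The saline bars lie between 0.308 and 0.360% and the LPS bars between 0.523 and 0.677%, and the leukocyte sums of the LPS libraries are all above those of saline. The experiments were scaled separately.

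Among genes of proteins that act with the proteasome, part of each list was called, to be read against the 29.5% of all genes tested that were called higher (41.9% of those averaging 5 FPKM or more). These lists hold 5 to 7 genes each, and nothing particular to them is read from their counts. All 5 genes of the activators and the inhibitor were tested and 4 were called higher, among them Psme3, a cap of the nuclear proteasome (log2 fold change 1.08, SE 0.12), and Psme2, a subunit of the interferon-inducible cap (0.89, SE 0.21), and the median was 0.80. Of 5 genes of core assembly chaperones, 3 were called higher, with Pomp, which guides β ring assembly, at 1.23 (SE 0.20) and Psmg4 at 1.02 (SE 0.21), and the median was 0.52. Of 7 genes of other proteins of the regulatory particle, 5 were called higher, with Sem1, a small subunit of the lid, at 1.46 (SE 0.26) and Uchl5, a deubiquitinase, at 0.84 (SE 0.17), and the median was 0.73. The shuttle receptors that carry ubiquitin conjugates to the particle had 3 of 6 genes higher and 1 lower, with Rad23b at 0.67 (SE 0.11), Ubqln2 at -0.33 (SE 0.09) and a median of 0.31.

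The genes of the NRF1 axis were also measured. Of these 6 genes, 5 were called higher, and the median log2 fold change was 0.54. Over all genes tested 29.5% were called higher, as were 41.9% of those averaging 5 FPKM or more. Nothing particular to this list or to the ubiquitin list below is read from their counts. Nfe2l2, the gene of the oxidative stress factor NRF2, had 1.12 (SE 0.13), and Vcp, the ATPase that extracts NRF1 from the endoplasmic reticulum, had 0.88 (SE 0.12). Nfe2l1 itself stood at 48.6 ± 1.35 FPKM (SD, n = 4) in saline and at 61.4 ± 6.66 FPKM (SD, n = 6) in LPS, with a log2 fold change of 0.32 (SE 0.11, limma adjusted p = 0.0267). Of 6 genes of ubiquitin and its activating enzymes, 3 were called higher, with a median of 0.58, and the highest was Rps27a, a ubiquitin fusion gene that also encodes a ribosomal protein, at 1.61 (SE 0.38).

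**Figure D3:**
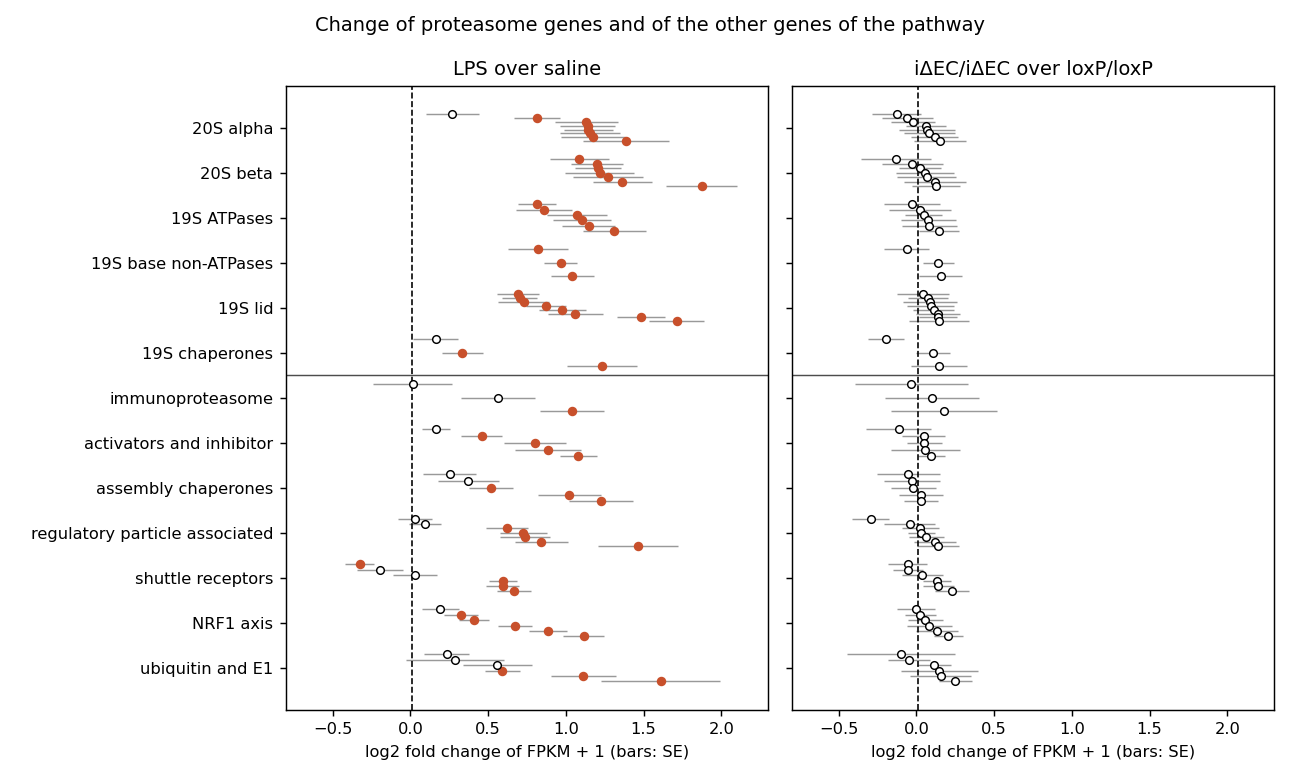
Log2 fold change of FPKM + 1 with its SE (points and bars, 1 point per gene) by subunit group above the line and for other genes of the pathway below it. Filled points were called at adjusted p at or under 0.05, and the dashed line is the median of all genes tested. On the left, 33 of 35 members are filled and lie right of the line, and on the right no point is filled.

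The immunoproteasome genes, which were left out of the members by the rule, were compared with their constitutive partners. Of the 3 genes, 1 was called higher, a share near the 29.5% of all genes tested that were called higher. Psmb8 was called higher, with 32.9 ± 6.00 FPKM in saline and 70.2 ± 21.9 FPKM in LPS (SD) and a log2 fold change of 1.04 (SE 0.21, limma adjusted p = 0.00168). Psmb10 was not called, with 68.8 ± 8.49 FPKM and 107 ± 44.0 FPKM (log2 fold change 0.56, limma adjusted p = 0.0646). Psmb9 was not called either, with 24.5 ± 9.20 FPKM and 23.9 ± 6.26 FPKM (log2 fold change 0.01, limma adjusted p = 0.965, 95% confidence interval -0.54 to 0.57).

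The ratio of each immunoproteasome gene to the constitutive gene it replaces was lower on average in LPS for all 3 pairs. The log2 ratio of Psmb8 to Psmb5 was -0.41 ± 0.33 (SD, n = 4) in saline and -1.24 ± 0.21 (SD, n = 6) in LPS, a difference of -0.83, and the groups did not overlap. The log2 ratio of Psmb9 to Psmb6 was -0.71 ± 0.74 in saline and -1.92 ± 0.29 in LPS, a difference of -1.20, and saline 1, at -1.77, lay within the LPS range. The log2 ratio of Psmb10 to Psmb7 was 2.29 ± 0.34 in saline and 1.66 ± 0.29 in LPS, a difference of -0.64, with LPS 2 at 2.25 within the saline range. The two-sided exact permutation p-values were 0.00952, 0.0286 and 0.0190. Adjusted over the 6 ratio comparisons of both experiments, each exact permutation p was 0.0571, above the threshold of 0.05. Without saline 1 the differences were -0.95, -1.55 and -0.80 and each adjusted exact p was 0.0476. With 4 libraries against 6, the smallest exact p is 0.00952, so these adjusted values are bounded by the numbers of libraries and comparisons. Nothing is read from the side of 0.05 on which they fall.

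**Figure D4:**
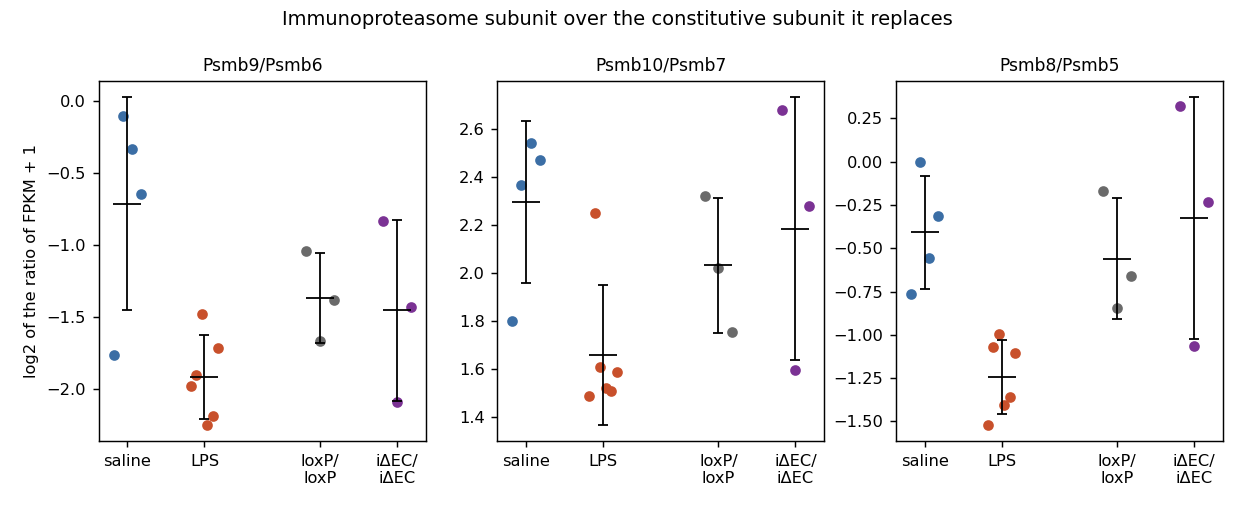
Log2 ratio of FPKM + 1 of each immunoproteasome gene over the constitutive gene it replaces (points are libraries, the bar is the mean and the whiskers are the SD). The LPS means lie below the saline means by 1.20 (Psmb9/Psmb6), 0.64 (Psmb10/Psmb7) and 0.83 (Psmb8/Psmb5), and the genotype groups overlap in all 3 panels.

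In the second experiment the same genes were compared between genotypes under 2 mg/kg LPS. Fgfr1, the deleted gene, stood at 2.90, 2.91 and 2.59 FPKM in loxP/loxP 1 to 3 and at 0.683, 1.41 and 1.15 FPKM in iΔEC/iΔEC 1 to 3. The groups were apart in the direction of the label, with a log2 fold change of -0.88 (SE 0.16), although over all genes the limma adjusted p was 0.962. That fold change is of FPKM + 1, which understates the change of a low gene. The ratio of the mean FPKM, iΔEC/iΔEC over loxP/loxP, was 0.386 (log2 -1.37). The Fgfr1 value counts reads over the whole gene, and the floxed exons are not given in the sources used here. Of the 36 proteasome genes 35 were tested and 0 were called in either direction, where 0% of the 14945 genes tested were called by limma. At an unadjusted p under 0.05 there were 661 genes (4.42%) and 0 members. With same-numbered libraries paired by a replicate block this count was 1154 genes and 0 members, and leaving out 1 library moved it between 403 (without iΔEC/iΔEC 1) and 1072 (without iΔEC/iΔEC 2), with 2 members at most (without loxP/loxP 3). With all of these settings 0 genes were called after adjustment, and limma-voom on the recovered reads called 0 genes as well.

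The estimated differences of the members were small and their intervals were wide. The median log2 fold change of iΔEC/iΔEC over loxP/loxP was 0.08, with a range from -0.20 (Psmd10) to 0.16 (Psmd2) and an SD of 0.09, against 0.28 over all genes. The 95% confidence intervals reached from -0.67 at the lowest, for Psmb5, to 0.60 at the highest, for Psmd8. A log2 fold change above 0 was seen in 27 of the 35 members and in 53.1% of all genes tested. In 0 members did the groups stand apart, where 6.02% of the genes tested were apart above and 4.09% below.

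Psmb5 stood at 89.5, 115 and 68.4 FPKM in loxP/loxP 1 to 3 and at 71.6, 98.7 and 75.7 FPKM in iΔEC/iΔEC 1 to 3 (log2 fold change -0.13, SE 0.22, limma adjusted p = 0.969). Psmb6 stood at 73.4, 85.6 and 52.1 FPKM and at 74.2, 69.4 and 71.6 FPKM (log2 fold change 0.05, SE 0.19). Psmb7 stood at 24.2, 26.4 and 19 FPKM and at 23.7, 23.9 and 22.7 FPKM (log2 fold change 0.03, SE 0.14). In all 3 catalytic genes loxP/loxP 3 was the lowest and loxP/loxP 2 the highest library of the experiment. Psmd2, with the highest change, stood at 58.2, 61.2 and 46.0 FPKM and at 59.3, 58.7 and 65.8 FPKM (SE 0.14), and Psmd10, with the lowest, at 16, 16.1 and 13 FPKM and at 12.2, 13.2 and 13.4 FPKM (SE 0.11). The interval for Psmd10 ran from -0.47 to 0.08.

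The sign of the small median depended on 1 library and on the scaling. loxP/loxP 3 was the lowest of its group in all 35 tested members, with a mean log2(FPKM + 1) of 4.85 against 5.26 and 5.35 in loxP/loxP 1 and 2, whereas the iΔEC/iΔEC libraries lay at 5.22, 5.22 and 5.20. Without loxP/loxP 3 the median was -0.09, and 5 of 35 members were above 0. The same library had the highest epithelial marker sum of the 6 (2590 FPKM, against 357 to 1447 FPKM) and the highest neutrophil (2615 FPKM) and macrophage and monocyte sums (2755 FPKM). Scgb1a1 held 1310 FPKM of that epithelial sum, and the list's mean log2(FPKM + 1) was 5.36, against 5.28 in loxP/loxP 2. The leukocyte sum of loxP/loxP 3 (757 FPKM) was below those of iΔEC/iΔEC 2 (1023 FPKM) and loxP/loxP 2 (856 FPKM). The part of these cells in the lower proteasome levels of loxP/loxP 3 was not tested. With equal totals of reads the median was 0.011 and 20 of 35 members were above 0, with limma-voom it was 0.0097 and 19 were, and on the scale of the endothelial markers it was -0.17 and 0 were. Several marker lists leaned in 1 direction between the genotypes, with 0 genes called. Of the endothelial markers 9 of 10 were above 0 (median log2 fold change 0.29, 2 with groups apart), while all leukocyte, neutrophil, macrophage and monocyte, lymphocyte and epithelial markers were below 0, with medians of -0.21, -0.48, -0.15, -0.40 and -0.73. Within same-numbered pairs, the epithelial and neutrophil sums were lower and the endothelial sum higher in iΔEC/iΔEC in every pair. The leukocyte, macrophage and monocyte, and lymphocyte sums went both ways between pairs. The part of these marker lists in the members' values was not tested.

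The other proteasome lists were called in 0 genes between the genotypes as well, with list medians from -0.02 (assembly chaperones) to 0.13 (ubiquitin and its activating enzymes). For the partner ratios, the differences were 0.23 (Psmb8/Psmb5), -0.09 (Psmb9/Psmb6) and 0.15 (Psmb10/Psmb7), with exact permutation p-values of 0.7, 0.9 and 0.8 and an adjusted p of 0.9 for each. With 3 libraries against 3, the smallest exact p is 0.1.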

How the data were processed

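RNA-seq was measured in the 16 EC libraries. The authors isolated RNA with TRIzol, sequenced on an Illumina NovaSeq, aligned reads to GRCm38 with HISAT2 2.0.5 and counted them on genes with featureCounts 1.5.0-p3. Strandedness and annotation release are not given in the sources used here. The deposited values are FPKM, with gene lengths, in a table for each experiment. FPKM multiplied by length gave whole reads for 100% of the values (tolerance 0.05), so depth is known. The floor of 3 reads covers counting error only, and the 95% confidence intervals of log2 fold changes are those of limma, from the spread between libraries. The second table had 11 symbols that were replaced through the gene ID by those of the other table. The tables were normalized separately, and each comparison stays within its own table.

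FPKM were scaled by median-of-ratios factors, which left the first table as deposited. For log2(FPKM + 1), genes averaging 0.5 FPKM or more were compared with limma 3.58.1 (trend, R 4.3.3) within each experiment without covariates, adjusted by Benjamini-Hochberg over all genes tested and called at 0.05 with any fold. A fold change on this scale understates that of low genes. The lowest and highest changes in each subunit group, the catalytic subunits and Fgfr1 were described in full, with up to 2 called genes for each other list, 1 of which is not reported here. Members and lists were chosen with earlier results of these data known. Ratios between partner genes were tested by exact permutation (two-sided). Same-numbered libraries of the second experiment deviated together (r = 0.248, 0.178 and 0.187), so their numbers were taken as pairs in the replicate block and for marker sums. The main fit and the ratio tests of that experiment were not paired, so its SEs, confidence intervals and p-values leave this pairing out unless the block is named. The alternatives were other scalings, filters, pseudocounts and models, a replicate block and leaving out libraries. The limma step was also run on simulated data, with a small set of changed genes, as many up as down. The LPS comparison, with 53.2% of genes called, is unlike that setting, and nothing here rests on the simulation. Python 3.11.15, pandas 2.3.3, scipy 1.17.1 and matplotlib 3.10.9 served for tables and figures.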

Additional observations from a re-analysis of the deposited data

Results flagged for a closer look

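Of 82 group values examined, 6 held a single outlying library, where chance gives about 1 in 20, or 4.1. LPS 2 was far above the other LPS libraries in all 3 immunoproteasome genes, with 113 FPKM for Psmb8 (others 50.1 to 70.6), 36 FPKM for Psmb9 (others 18.6 to 23.3) and 194 FPKM for Psmb10 (others 78.2 to 109). Its log2 ratio of Psmb10 to Psmb7 was 2.25, and the others lay between 1.48 and 1.61. Among the constitutive genes, Psmd7 in saline 3 was 40.8 FPKM (others 32.3 to 33.2), and Psmd12 in saline 1 was 24.5 FPKM (others 17.9 to 18.7). LPS 2 also had the highest neutrophil marker sum (6638 FPKM), whose part in these values was not tested.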

How the results depend on the processing

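Under the 20 alternatives run for LPS against saline other than a fold limit, not counting the values as deposited, which gave the same fit, 31 to 34 members were called higher and 0 lower, and 31 members were called in every one. With a fold limit of 1 on the log2 scale 22 were called. The members' median log2 fold change was 0.69 after quantile normalization and 1.82 on the endothelial marker scale. The median of all genes was -0.14 with equal totals of reads, -0.19 with limma-voom and 0.57 on the endothelial marker scale. Relative to it, the members' median was 1.05, 1.11 and 1.24 in these settings, against 1.09 as reported. The same difference was 0.77 after quantile normalization and 0.90 at a mean of at least 5 FPKM. All genes called higher and lower numbered 7286 and 783 on the endothelial marker scale, 1768 and 1011 with a fold limit, and 3253 and 1545 at a mean of at least 5 FPKM. Psmd9 was at -0.0051 with equal totals and at -0.013 with limma-voom, and on the endothelial marker scale it was called (0.76). Leaving out single libraries gave ratio differences of -0.95 to -0.70 (Psmb8/Psmb5), -1.55 to -1.0 (Psmb9/Psmb6) and -0.80 to -0.55 (Psmb10/Psmb7) in LPS against saline. Between genotypes it gave -0.089 to 0.60, -0.40 to 0.23 and -0.095 to 0.45. The adjusted exact permutation p was 0.0476 for all 3 ratios without saline 1, and for Psmb8/Psmb5 and Psmb10/Psmb7 without LPS 2. These values are bounded by the numbers of libraries and comparisons, and nothing is read from their being under 0.05.

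Between genotypes the members' median was -0.17 on the endothelial marker scale, where Psmb6 was -0.20, Psmb7 -0.22 and Psmd2 -0.092. With equal totals Psmb6 was -0.012 and Psmb7 -0.039, with limma-voom -0.015 and -0.042, and Psmb7 was -0.010 after quantile normalization. Without 1 library, Psmb5 ranged from -0.32 to 0.051, Psmb6 from -0.14 to 0.21 and Psmb7 from -0.11 to 0.12. The cause of these changes was not tested. The replicate block, which pairs same-numbered libraries, called 0 members in the second experiment (lowest adjusted p 0.705) and changed no call there. In the first experiment same-numbered libraries shared only a number (r from -0.21 to 0.10), and the block left 32 members called with a median of 1.15. Depth limits Psma8 and Psmb11, and a filter at 5 FPKM removes Psmd9 and Psma8. Psma8 was below the filter in some fits without 1 library and gave no value there.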

Other observations

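The remaining marker lists were as follows in LPS against saline. Of the 5 lymphocyte markers tested, 0 were called higher and 2 lower, and of the 8 epithelial markers 0 and 2. Of 4 fibroblast markers tested 2 were lower, of 5 mural markers 1 was lower, and the 2 erythroid markers tested were higher. Over all genes tested, 29.5% were called higher and 23.7% lower. The epithelial and mural counts were near the latter share, and nothing is read from the counts of lists this small. Between genotypes 0 genes of these lists or of the endothelial, leukocyte, neutrophil and macrophage and monocyte lists were called.

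The 36 members lie on 16 chromosomes, with 6 on chromosome 11. In GENCODE M21, 16 members are overlapped by another annotated gene and 8 by a protein-coding one, among them Psmd13 by Sirt3, Psmd5 by Cutal and Psmd9 by Hpd, and whether the counting used strand is not given in the sources used here. The median GC content of the 31 member windows was 56.67%, against 52.67% for all windows.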
